A study of Mus musculus with 20 samples.

Results

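The genes described here are the SOCS family members Cish, Socs1, Socs2 and Socs3 and the transcription factor genes Stat3, Stat4, Stat5a, Stat5b and Stat6, chosen by gene symbol. They are 9 of the 10696 genes listed for IL25R+ cells and 9 of the 10580 listed for ST2+ cells, and all 9 are in both tables. The study followed group 2 innate lymphoid cells (ILC2), lymphocytes that release type-2 cytokines without an antigen receptor, taken from thymi of wild-type male mice described as young. Cells were sorted as IL25R+ (high for the IL-25 receptor) or ST2+ (positive for the IL-33 receptor) and cultured in 96-well plates. After 12 h the medium was changed, and 24 h later the cells were exposed for 24 h. IL25R+ cells received rIL-25 and rIL-33 together (called both cytokines), rIL-25 alone, rIL-33 alone or PBS vehicle, in 3 libraries each. ST2+ cells received rIL-33 or PBS vehicle, in 4 libraries each. Each cytokine was given at 10 ng/mL, and the medium, that of the vehicle cultures included, held 10 ng/mL IL-7. RNA was measured by bulk MARS-seq, which counts the 3′ ends of polyadenylated transcripts.

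IL-7 and many other cytokines signal through receptors that lack an enzyme of their own and rely on bound Janus kinases (JAK). The kinases phosphorylate STAT proteins, which then enter the nucleus and act as transcription factors. SOCS genes are themselves STAT targets, and their proteins bind the receptors or the kinases and dampen the signal, so their RNA is often read as a trace of recent STAT activity. IL-25 and IL-33 use receptors of other families, which signal mainly through adaptor proteins to NF-κB and MAP kinases.

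On mouse build mm10 with the GENCODE M21 annotation, all 9 genes are protein-coding. Cish lies on the plus strand at chr9:107296026-107302784 and Socs3 on the minus strand at chr11:117966079-117970047. The genes for Stat3, Stat5a and Stat5b neighbour each other on chromosome 11, where the 3′ ends of Stat3 and Stat5a, on opposite strands, overlap by 72 bases. The 3′ ends of Stat6 and Nab2 overlap by 40 bases. The strand setting of the counting is not given in the sources used here, so reads from these overlaps cannot be told apart. Cish is overlapped on the other strand by the antisense gene Gm17041 and the pseudogene Gm17040, neither of which is listed in the tables.

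RefSeq promoter sequences (build GRCm38.p6) were matched for 8 of the 9 genes, all except Socs2. The 250 bases before each start were searched on both strands for TTCNNNGAA and TTCNNNNGAA, the spacings known for STAT binding, and for GGGNNNNNCC, a loose form of the NF-κB motif. Of 32851 RefSeq promoters, 7.02% held TTCNNNGAA, 5.85% held TTCNNNNGAA and 45.8% held GGGNNNNNCC. Socs3 was the only one of the 8 genes with TTCNNNGAA, as TTCTTAGAA from base -154 to base -146 before its start, and none of the 8 held TTCNNNNGAA. The window of Cish lay inside an exon that GENCODE annotates for Cish. It held 1 match to GGGNNNNNCC, read on the other strand as GGTCCCGCCC from base -117 to base -108. The upstream sequence is given for Socs3, the SOCS gene that fell with IL-25, and for Socs1, its relative that did not pass the test. Capitals mark the motif matches, and in Socs1 the second and the third match to GGGNNNNNCC overlap. The Socs3 stretch is chr11:117969452-117969616 and leaves out bases of the window that lie in an annotated exon, and the Socs1 stretch is chr16:10785537-10785786. Both are on the minus strand.
Socs3: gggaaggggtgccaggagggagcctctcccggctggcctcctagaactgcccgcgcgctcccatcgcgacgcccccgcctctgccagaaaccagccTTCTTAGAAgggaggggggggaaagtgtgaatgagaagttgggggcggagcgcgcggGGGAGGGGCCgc
Socs1: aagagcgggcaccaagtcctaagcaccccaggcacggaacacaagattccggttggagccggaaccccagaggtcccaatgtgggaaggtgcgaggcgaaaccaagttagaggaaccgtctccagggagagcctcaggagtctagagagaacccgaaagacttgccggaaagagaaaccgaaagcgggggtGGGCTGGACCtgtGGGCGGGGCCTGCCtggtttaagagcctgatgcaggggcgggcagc

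Total counts were 834913 to 1880906 in the 12 IL25R+ libraries and 537999 to 5453444 in the 8 ST2+ libraries. Levels are CPM, counts scaled to a library total of 1e+06. Changes are log2 fold changes ± standard error (SE) from edgeR with TMM scaling, fitted on all genes that passed the filter on low counts, and a gene passed the test at a Benjamini-Hochberg adjusted p under 0.05. The labels do not say whether replicates were separate animals or cultures, so p-values measure the spread between these samples, which may be technical. Replicates differed more in ST2+ cells, with a biological coefficient of variation by edgeR of 0.328, than in IL25R+ cells, with 0.128. The IL25R+ libraries split by Glycam1, a mucin-like glycoprotein gene: it was above 10 CPM in the 3 libraries with both cytokines, IL-33 library 3 and the 3 vehicle libraries, and below 10 CPM in the 3 IL-25 libraries and IL-33 libraries 1 and 2. IL-25 and vehicle thus lie on opposite sides of this split. ST2+ IL-33 library 2 stood apart, with Il13 at 2520 CPM, the lowest of its group. Aire, a transcriptional regulator of thymic epithelium, followed the same split. It was at 10823, 30.7 and 0 CPM in IL-33 libraries 1 to 3 and 22.3 to 33.2 CPM with IL-25. Aire was at 0 to 1.21 CPM with both cytokines and 0 to 1.96 CPM with vehicle. The epithelial gene Epcam averaged 8.45 CPM with both cytokines, 10.4 CPM with IL-25, 9.22 CPM with IL-33 and 6.84 CPM with vehicle. The epithelial genes Krt5, Krt8, Foxn1 and Psmb11 were not listed. Of 12 ILC2 markers 11 were listed in IL25R+ cells, all except Areg. They summed to 3369 to 3559 CPM with both cytokines and 3215 to 3533 CPM with IL-25. The sum was 3151 to 3562 CPM with IL-33 and 3474 to 3525 CPM with vehicle. Thy1 made up most of each sum. The highest average of another listed marker was 119 CPM with vehicle (Gata3) and 336 CPM with both cytokines (Il13). Klrg1 was low at an average of 6.84 CPM or less in each group. With vehicle Icos, Rora, Il1rl1 and Il5 averaged 12.2, 11.1, 9.63 and 0.327 CPM. Il17rb, the gene of the IL-25 receptor, averaged 23.8 CPM in IL25R+ vehicle libraries and 85.6 CPM in ST2+ vehicle libraries. The 2 populations were not tested against each other for this gene. In ST2+ cells all 12 ILC2 markers were listed and summed to 4236 to 18853 CPM with IL-33 and 3612 to 4823 CPM with vehicle. All 8 T-cell markers were listed in IL25R+ cells, among them Cd3g and Lck. Their summed level there was 1074 to 1196 CPM with both cytokines, 1261 to 1415 CPM with IL-25, 1545 to 1802 CPM with IL-33 and 1599 to 1683 CPM with vehicle. In ST2+ cells it was 54.2 to 131 CPM with IL-33 and 160.4 to 342 CPM with vehicle, with Rag1 not listed.

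Among the SOCS genes, Cish rose and Socs3 fell with IL-25 in IL25R+ cells, with or without IL-33. With both cytokines Cish was about 2.01-fold the vehicle level and Socs3 0.695-fold, and with IL-25 alone Cish was 1.73-fold and Socs3 0.663-fold. IL-33 alone gave no member a change that passed the test in either population. None of the 5 STAT genes passed in any of the 9 comparisons. All 9 members passed the filter in every fit.

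Cish encodes a SOCS protein that is induced by STAT5 and dampens the signal of the IL-2 family of receptors. Its level was 293, 211 and 212 CPM with both cytokines and 197, 225 and 162 CPM with IL-25. IL-33 libraries 1 to 3 held 105, 127 and 170.4 CPM, and the vehicle libraries held 134, 138 and 111 CPM. The 6 libraries with IL-25 in the medium were all above the 3 vehicle libraries, while the IL-33 libraries lay around them and only IL-33 library 3 exceeded them. The log2 change over vehicle was 1.01 ± 0.166 with both cytokines (edgeR adjusted p = 0.000207) and 0.79 ± 0.167 with IL-25 (edgeR adjusted p = 0.00251). With IL-33 it was 0.05 ± 0.173 (edgeR adjusted p = 0.936). In bulk samples, fewer cells of a type and less RNA per cell cannot be told apart.

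Cish was also compared between the cytokine groups. With both cytokines it was above IL-33 alone by 0.95 ± 0.163 (edgeR adjusted p = 0.000327), and with IL-33 it was below IL-25, with a log2 change of -0.73 ± 0.165 (edgeR adjusted p = 0.00475). On the CPM scale IL-33 library 3 reached above the lowest IL-25 library, and on the TMM scale these groups did not overlap. Adding IL-33 to IL-25 moved Cish by 0.22 ± 0.156 (edgeR adjusted p = 0.491). In the test of non-additivity, the difference between the joint change and the sum of the separate ones was 0.17 ± 0.233 for Cish (edgeR adjusted p = 0.767). By mean level the order was both cytokines, IL-25, IL-33 and vehicle, and each neighbouring pair overlapped.

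Cish passed the test against vehicle with every single library left out, both for IL-25 and for both cytokines. With the side of the Glycam1 split as a term, Cish was 1.34 above vehicle with IL-25 and still passed. Under that term Cish with both cytokines against IL-33 was 0.60 with an edgeR adjusted p of 0.0648, and so did not pass. The term rests on the IL-33 group, since it alone has libraries on both sides. With IL-33 libraries 1 and 2 left out together, which leaves 1 IL-33 library and no test, Cish was 0.42 above vehicle with IL-33, against 0.05 with all 3 libraries. Without IL-33 library 1 alone, the library with the high Aire level, the change with IL-33 was 0.19 for Cish (edgeR adjusted p = 0.749) and 0.17 for Socs3 (edgeR adjusted p = 0.728).

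Socs3 encodes the protein that blocks signalling from the gp130 receptor of the IL-6 family and is induced by STAT3. Its level was 142, 109.5 and 95.6 CPM with both cytokines and 113, 110.1 and 91.6 CPM with IL-25. IL-33 libraries held 170.3, 186 and 226 CPM and vehicle libraries 178, 194 and 165 CPM. The 6 libraries with IL-25 in the medium were all below the 6 without it, with no overlap. The log2 change over vehicle was -0.53 ± 0.146 with both cytokines (edgeR adjusted p = 0.0168) and -0.59 ± 0.148 with IL-25 (edgeR adjusted p = 0.00870). With IL-33 it was 0.11 ± 0.144 (edgeR adjusted p = 0.835). Socs3 was lower with both cytokines than with IL-33 by a log2 change of -0.63 ± 0.144 (edgeR adjusted p = 0.00407), and higher with IL-33 than with IL-25 by 0.70 ± 0.146 (edgeR adjusted p = 0.00259). Both cytokines against IL-25 gave 0.07 ± 0.147 (edgeR adjusted p = 0.864), and the non-additivity was -0.04 ± 0.206 (edgeR adjusted p = 0.944).

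The fall of Socs3 against vehicle depended on single libraries. For both cytokines it did not pass without library 2 or library 3 of that group or without vehicle library 1 or 2, with edgeR adjusted p values from 0.0530 to 0.122 and changes that stayed negative. For IL-25 it did not pass without IL-25 library 3 (edgeR adjusted p = 0.0647) or vehicle library 2 (edgeR adjusted p = 0.0539). With the side of the Glycam1 split as a term, the Socs3 change with IL-25 was -0.26 with an edgeR adjusted p of 0.555. Under that term Socs3 still passed for both cytokines over vehicle, groups that lie on the same side of the split. The summed T-cell markers were lower in every library with IL-25 or with both cytokines than in every vehicle library, as Socs3 was, and their part in the result was not tested.

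**Figure D1:**
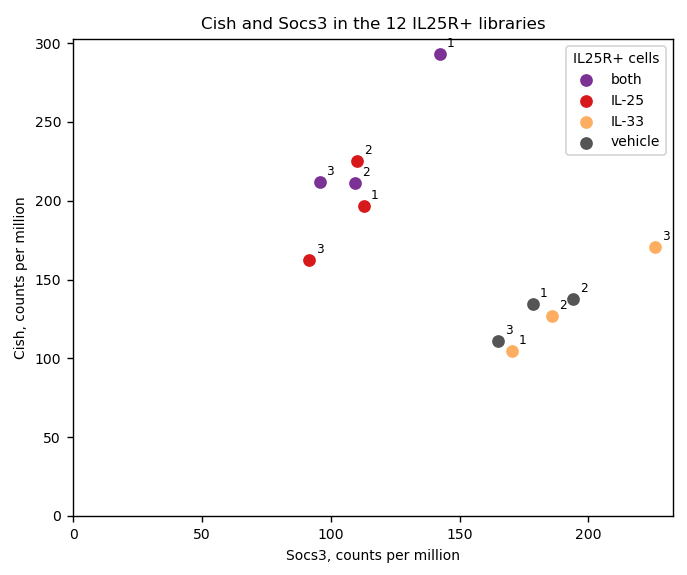
Cish against Socs3 in the 12 IL25R+ libraries, both axes in CPM, 1 point per library coloured by treatment and labelled by replicate number. The 6 libraries with IL-25 in the medium lie at 91.6 to 142 CPM of Socs3, left of the 6 libraries without it at 165 CPM or more, and 5 of the 6 lie above all libraries without it for Cish (IL-25 library 3 is below IL-33 library 3).

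Socs1 encodes a direct inhibitor of the JAK kinases, best known for restraining interferon signals. Its level was 431, 236 and 308 CPM with both cytokines, 368, 333 and 286 CPM with IL-25, 346 to 476 CPM with IL-33, and 329.6, 382 and 291 CPM with vehicle. All 4 groups overlapped, and the 3 libraries with both cytokines spanned the vehicle range. The Socs1 change over vehicle was 0.06 ± 0.171 with both cytokines, 0.16 ± 0.171 with IL-25 and 0.33 ± 0.171 with IL-33, with edgeR adjusted p values of 0.843, 0.587 and 0.458 in that order.

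Socs2 encodes the SOCS protein known for limiting growth hormone signalling. It stood at 83.7, 123 and 101 CPM with both cytokines, at 138, 111 and 109 CPM with IL-25, at 116, 132 and 127 CPM with IL-33, and at 141, 143 and 141 CPM with vehicle. Every treated library was below the vehicle libraries in CPM, which had an SD of 0.697 CPM. On the TMM scale the IL-25 libraries overlapped the vehicle libraries. The Socs2 change over vehicle was -0.34 ± 0.144 with both cytokines (edgeR adjusted p = 0.109), -0.06 ± 0.142 with IL-25 (edgeR adjusted p = 0.813) and -0.19 ± 0.145 with IL-33 (edgeR adjusted p = 0.660). None of these passed, although for both cytokines Socs2 passed with library 2 of that group left out (edgeR adjusted p = 0.0491).

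**Figure D2:**
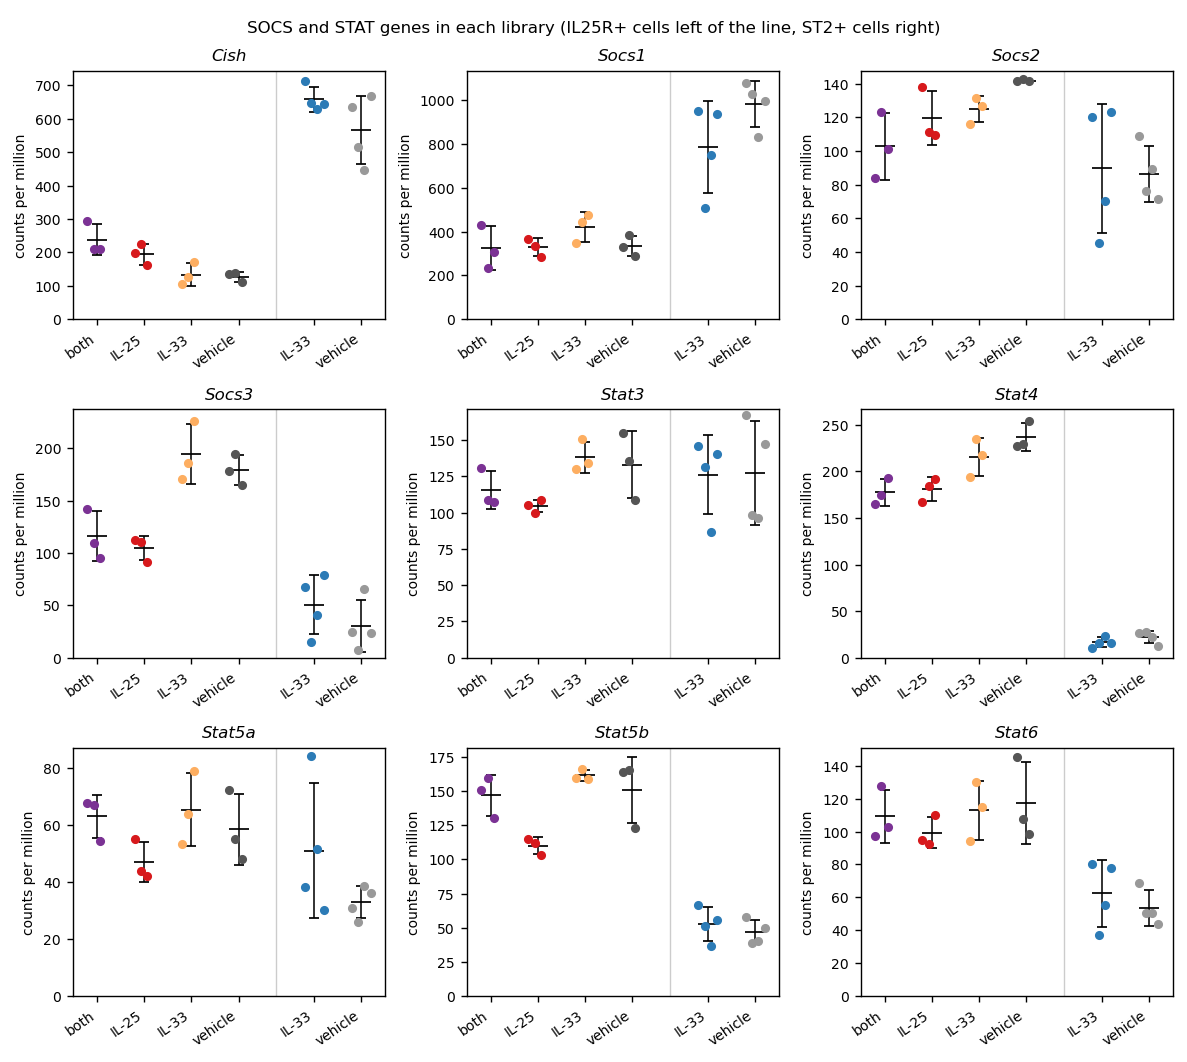
Level of the 9 genes in every library, in CPM, with IL25R+ groups left of the line and ST2+ groups right of it. Points are libraries and bars are the mean ± SD of 3 (IL25R+) or 4 (ST2+) libraries; Cish is higher and Socs3 lower in the IL25R+ groups with IL-25, and in ST2+ cells no gene separates the IL-33 libraries from the vehicle libraries.

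Of the STAT genes, Stat5a and Stat5b encode the STAT proteins that carry the IL-7 signal. Stat5b stood at 151, 159 and 130.1 CPM with both cytokines, 115, 112 and 103 CPM with IL-25, 159, 166 and 159 CPM with IL-33, and 164, 165 and 123 CPM with vehicle. In CPM the IL-25 libraries were the lowest, below every library of the other 3 groups. On the TMM scale they overlapped the vehicle libraries, reaching 125.7 against a vehicle minimum of 118.6. They stayed below the libraries with both cytokines and with IL-33 on that scale. With TMM scaling the Stat5b change was -0.27 ± 0.133 for IL-25 over vehicle (edgeR adjusted p = 0.173), 0.35 ± 0.129 for both cytokines over IL-25 (edgeR adjusted p = 0.139) and 0.37 ± 0.130 for IL-33 over IL-25 (edgeR adjusted p = 0.0611), none of which passed. With library size alone as the scaling, Stat5b passed for IL-25 over vehicle at -0.45 (edgeR adjusted p = 0.0234) and for IL-33 over IL-25 at 0.56 (edgeR adjusted p = 0.00678). That scaling also moved the median log2 change of all genes, to -0.21 for IL-25 over vehicle and to 0.22 for IL-33 over IL-25. Stat5a ranged from 54.5 to 67.9 CPM with both cytokines, 42.0 to 55.2 CPM with IL-25, 53.4 to 78.9 CPM with IL-33 and 48.1 to 72.4 CPM with vehicle, and these ranges overlapped. Its largest change among the comparisons of IL25R+ groups was 0.35 ± 0.172, for both cytokines over IL-25 (edgeR adjusted p = 0.284).

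Stat4 encodes the STAT that carries the IL-12 signal. Its level was 165, 174 and 193 CPM with both cytokines, 167, 185 and 191 CPM with IL-25, 194, 235 and 217 CPM with IL-33, and 227, 230.0 and 254 CPM with vehicle. The libraries with IL-25, alone or joined by IL-33, were all below the vehicle libraries. Stat4 changed by -0.31 ± 0.120 with both cytokines (edgeR adjusted p = 0.0892) and -0.21 ± 0.120 with IL-25 (edgeR adjusted p = 0.257), which did not pass. With library size alone it passed in both, at -0.42 (edgeR adjusted p = 0.0222) and -0.39 (edgeR adjusted p = 0.0298). Marker levels of other cells also differed between these groups. Gzma, the 1 listed marker of NK cells and ILC1, ranged from 95.1 to 119 CPM with both cytokines, 126 to 148 CPM with IL-25, 176 to 298 CPM with IL-33 and 259 to 279 CPM with vehicle, and the T-cell sum is given above. The sum of the 2 listed of 5 B-cell markers was 172 to 205 CPM with both cytokines, 186 to 266 CPM with IL-25, 120 to 160 CPM with IL-33 and 138 to 201 CPM with vehicle, with Ms4a1, Ebf1 and Pax5 not listed. Their part in the Stat4 level was not tested.

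Stat3, which carries IL-6 and IL-21 signals, ranged from 108 to 131 CPM with both cytokines, 100.1 to 109 CPM with IL-25, 130.1 to 150.5 CPM with IL-33 and 109 to 155 CPM with vehicle. Its IL-33 libraries were all above its IL-25 libraries, with a log2 difference of 0.22 ± 0.133 that did not pass (edgeR adjusted p = 0.299). Stat6, the factor downstream of the IL-4 and IL-13 receptors, ranged from 97.2 to 128 CPM with both cytokines, 92.7 to 110.0 CPM with IL-25, 94.3 to 130.0 CPM with IL-33 and 98.2 to 145 CPM with vehicle. The changes of Stat6 over vehicle lay between -0.07 and 0.00 in the IL25R+ groups.

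Read against all genes, the members' count was near the background. For both cytokines over vehicle 2 of 9 members passed, against 15.6% of the 8850 genes tested. For IL-25 over vehicle 2 of 9 passed, against 15% of genes. These shares rest on 1384 and 1325 genes, which became 779 and 832 without vehicle library 1, the lowest counts with a library left out, and 1738 and 1718 without IL-33 library 3, the highest. Without vehicle library 3 the IL-25 count was 847. The other comparisons with members that passed were both cytokines over IL-33, with 2 of 9 against 17.2%, and IL-33 over IL-25, with 2 of 9 against 13.8%. No member passed for IL-33 over vehicle (0.237% of genes), both cytokines over IL-25 (3.14%) or the non-additivity (2.35%). In these 3 comparisons, 0, 1 (Stat5b) and 0 members had an unadjusted edgeR p under 0.05, and DESeq2 and limma-voom also gave 0 members. The members whose CPM did not overlap between groups were 4 of 9 for both cytokines over vehicle (37.3% of genes), 6 of 9 for IL-25 over vehicle (39.1%; 3 of 9 on the TMM scale, against 35.3%) and 1 of 9, Socs2, for IL-33 over vehicle (13.8%). They were 1 of 9, Stat5b, for both cytokines over IL-25 (27.1%), 3 of 9 for both cytokines over IL-33 (32.4%) and 4 of 9 for IL-33 over IL-25 (33.2%; also 4 of 9 on the TMM scale, against 28.8%). By edgeR, Cish ranked 165 of 8850 genes by p for both cytokines over vehicle and 362 for IL-25 over vehicle, and Socs3 ranked 845 and 576 in the same order.

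**Figure D3:**
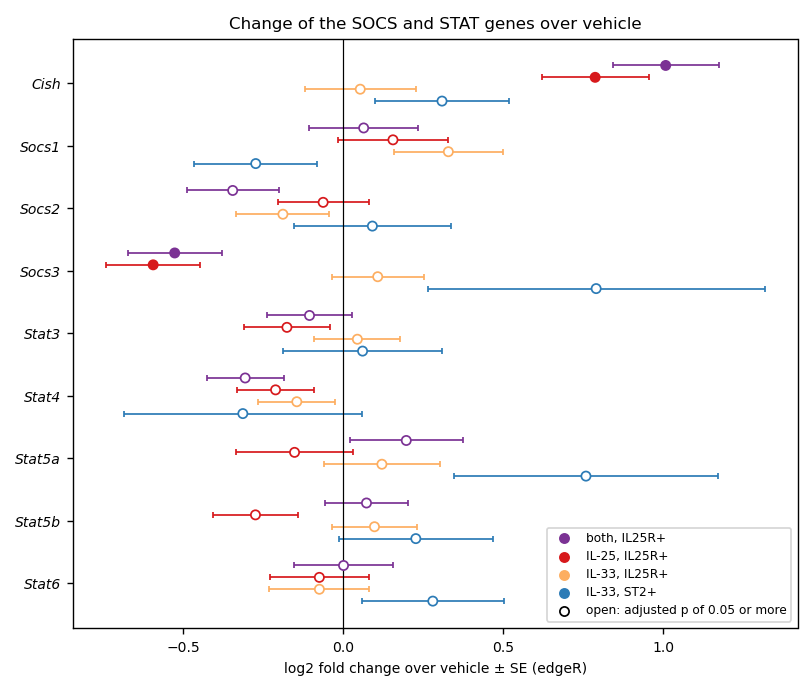
Log2 fold change over vehicle (x axis, edgeR, ± SE) of the 9 genes for both cytokines, IL-25 and IL-33 in IL25R+ cells and for IL-33 in ST2+ cells. Filled points passed at an adjusted p under 0.05: Cish at 1.01 and 0.79 and Socs3 at -0.53 and -0.59, with both cytokines and with IL-25 alone; all other points are open.

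In ST2+ cells Cish was at 712, 646, 630 and 645 CPM with IL-33 and at 634, 517, 447 and 667 CPM with vehicle. The IL-33 libraries lay in a narrow band that overlapped the upper vehicle libraries, and the change of Cish was 0.31 ± 0.210 (edgeR adjusted p = 0.341). Cish averaged 566 ± 103 CPM in ST2+ vehicle libraries (SD, n = 4) and 128 ± 14.5 CPM in IL25R+ vehicle libraries (SD, n = 3). These levels come from separate tables and were not tested against each other. Socs1 was at 951, 505, 749 and 938 CPM with IL-33 and at 1075, 1026, 831 and 996 CPM with vehicle, with the lowest value in IL-33 library 2. Its change was -0.27 ± 0.191 (edgeR adjusted p = 0.358).

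Socs3 was at 67.1, 15.2, 41.1 and 79.2 CPM with IL-33 in ST2+ cells and at 24.7, 7.43, 65.7 and 23.4 CPM with vehicle. The groups overlapped, the counts behind them ran from 4 to 432, and the change was 0.79 ± 0.526 (edgeR adjusted p = 0.331). Leaving out vehicle library 2 gave 0.52 (edgeR adjusted p = 0.571), as did leaving out IL-33 library 4 (edgeR adjusted p = 0.613), and the highest value was 1.39, without vehicle library 3 (edgeR adjusted p = 0.0841). Socs3 passed with none of the 8 ST2+ libraries left out. Stat5a was at 38.3, 84.2, 51.6 and 30.3 CPM with IL-33 and at 30.9, 26.0, 38.8 and 36.2 CPM with vehicle. Its highest value came from IL-33 library 2, and its change was 0.76 ± 0.413 (edgeR adjusted p = 0.232) with that library and 0.26 ± 0.268 (edgeR adjusted p = 0.492) without it.

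Socs2, Stat3, Stat4, Stat5b and Stat6 changed by -0.31 to 0.28 in ST2+ cells and their groups overlapped. Stat4 was low, at 10.7 to 23.3 CPM with IL-33 and 12.8 to 27.9 CPM with vehicle, against 227 to 254 CPM in IL25R+ vehicle libraries. No member passed for IL-33 over vehicle in ST2+ cells, where 16.5% of the 7626 genes tested did. That share rests on 1262 genes, which became 619 without IL-33 library 1 and 2581 without IL-33 library 2. The groups did not overlap for 0 of 9 members, against 21.7% of genes. At an unadjusted p under 0.05, edgeR also gave 0 members, as did DESeq2 and limma-voom after adjustment. Set against each other, the IL-33 changes of the populations, ST2+ minus IL25R+, differed with a passing test for no member, against 11.5% of 8964 genes, and for 0 members at an unadjusted edgeR p under 0.05 or by DESeq2 or limma-voom. This difference was -0.55 ± 0.271 for Socs1 (edgeR adjusted p = 0.198), 0.83 ± 0.516 for Socs3 (edgeR adjusted p = 0.313) and 0.29 ± 0.276 for Cish (edgeR adjusted p = 0.539).

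Genes around the members in the pathway were read from lists of ligands, receptors, kinases and targets, some of which share genes. The lists were chosen with earlier results of these data known. Their counts and medians are therefore descriptions, and STAT activity was not tested. Of the 15 STAT5 targets tested in IL25R+ cells, 8 rose and 2 fell with both cytokines, 6 rose and 1 fell with IL-25, and none passed with IL-33. Of all genes tested 8.97% rose and 6.67% fell with both cytokines, 9.07% rose and 5.9% fell with IL-25, and 0.181% rose with IL-33. Among the largest changes with both cytokines were those of Lif, a cytokine of the IL-6 family, at 2.13 ± 0.604, the survival gene Bcl2l1 at 1.70 ± 0.164 and the kinase gene Pim2 at 1.12 ± 0.117. Gzmb, a cytotoxic protease, rose too, with 45 counts in the 3 libraries with both cytokines and 1 count in the 3 vehicle libraries. Lif had 56 and 9 counts in these libraries. Pim1, another STAT5 target, did not pass at -0.12 ± 0.139. The median of the STAT5 targets was 0.62 with both cytokines, beside -0.03 for all genes, and 0.38 with IL-25, beside -0.03 for all genes. In ST2+ cells 13 were tested, of which 7 rose with IL-33, led by Pim2 at 3.15 ± 0.344, and 2 fell, against 8.52% and 8.03% of all genes. Those that fell were Bcl2 at -2.21 ± 0.438 and Pim1 at -1.17 ± 0.169. Their median was 0.82, beside 0.00 for all genes.

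Of the ligands that signal through JAK and STAT, 8 were tested in IL25R+ cells. Of these, 6 rose and 1 fell with both cytokines, 3 rose and 1 fell with IL-25 and 1, Il13, rose with IL-33, against 8.97%, 9.07% and 0.181% of all genes that rose. Ebi3, a subunit of IL-27 and IL-35, rose by 3.98 ± 0.476 with both cytokines, and Il15 changed by -2.20 ± 0.369. The vehicle level of Ebi3 rests on 9 counts in all. In ST2+ cells 8 of 9 rose with IL-33 (8.52% of all genes), among them Il5 at 5.48 ± 0.728 and Il9, with 1123 counts in the 4 IL-33 libraries and 2 counts in the 4 vehicle libraries. Of the 20 receptor genes tested in IL25R+ cells, 5 rose and 3 fell with both cytokines and the same numbers rose and fell with IL-25, so that 8 of 20 passed in each, against 15.6% and 15% of all genes. With both cytokines Il12rb1, a subunit of the IL-12 receptor, rose by 1.29 ± 0.353 and the interferon receptor gene Ifnar1 fell by 0.64 ± 0.184 on the log2 scale. Il7r, the receptor gene for the IL-7 in all cultures, was at 0.41 ± 0.210 with both cytokines and did not pass, and it fell by 1.52 ± 0.352 with IL-33 in ST2+ cells, where 2 of 19 receptor genes rose and 4 fell, against 8.52% and 8.03% of all genes.

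Of 6 further genes of the core pathway tested in IL25R+ cells, 2 passed with both cytokines (15.6% of all genes did) and 1 with IL-25 (15% of all genes). Jak1 fell by 0.69 ± 0.111 and Jak2 rose by 0.38 ± 0.127 with both cytokines, and Jak1 alone passed with IL-25, at -0.39 ± 0.111. In ST2+ cells Jak2 rose by 2.05 ± 0.363 with IL-33 and Irf9, an interferon regulatory factor, fell by 0.86 ± 0.228, the 2 of 6 that passed, against 16.5% of all genes. Of 15 other inhibitors of the pathway tested in IL25R+ cells, the phosphatase gene Ptpn6 rose by 0.53 ± 0.128 with both cytokines and Pias3 and Ptprc fell, and Ptpn6 alone passed with IL-25, against 15.6% and 15% of all genes. In ST2+ cells Socs5 alone, of 11 tested, passed with IL-33, at -2.78 ± 0.393, against 16.5% of all genes.

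Targets of other STATs were counted in the same way. Of 10 STAT3 targets in IL25R+ cells 5 rose with both cytokines and 3 with IL-25, against 8.97% and 9.07% of all genes, led in both by Batf, at 2.72 ± 0.195 and 2.48 ± 0.196, while Socs3, itself a STAT3 target, fell. Of 10 genes of the STAT6 and GATA3 programme 5 rose with both cytokines and 4 with IL-25, against the same shares, and Gata3 rose by 0.865 ± 0.139 and 0.995 ± 0.139 in that order. In ST2+ cells 3 of 9 STAT3 targets and 4 of 12 genes of the STAT6 and GATA3 programme rose with IL-33 and none fell, against 8.52% and 8.03% of all genes.

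**Figure D4:**
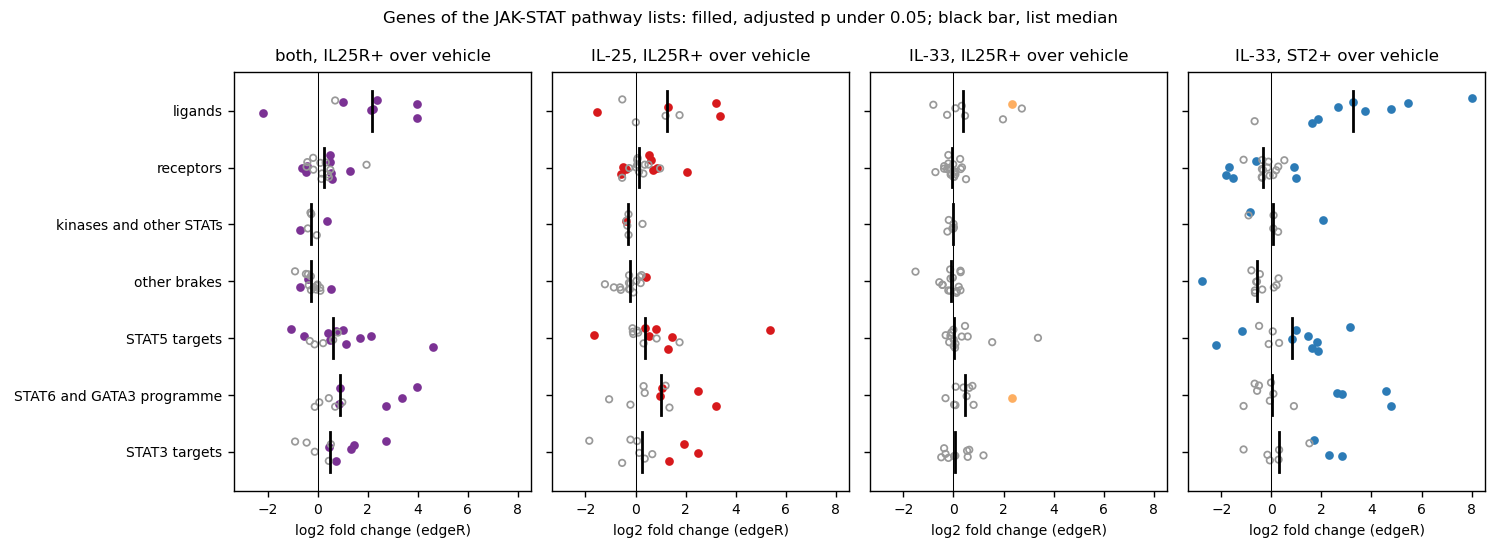
Log2 fold change over vehicle (x axis, edgeR) of the tested genes of 7 JAK-STAT lists (rows) in 4 comparisons (panels), 1 point per gene, filled where the adjusted p was under 0.05, with the list median as a black bar. The ligand median is 2.17 with both cytokines, 1.25 with IL-25, 0.40 with IL-33 in IL25R+ cells and 3.26 with IL-33 in ST2+ cells, while the kinase median stays between -0.31 and 0.08. The points of Gzmb (IL25R+) and Il9 (ST2+) rest on 1 and 2 vehicle counts, and those of Ebi3 and Lif (IL25R+) on 9 each.

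Over the 12 IL25R+ libraries, the genes whose log2(CPM + 1) was most like that of Cish, among 6162 genes compared, were Mcm2, a subunit of the replicative helicase (Pearson r = 0.955), Itgb2, the β2 integrin (r = 0.952), and Bmf, a pro-apoptotic gene (r = 0.933). For Socs3 they were Tcp11l2 (r = 0.965), the cytoskeletal gene Epb41 (r = 0.962) and the cyclin gene Ccnl2 (r = 0.962). These values are descriptions across points that share library, depth and treatment group. Cish and Socs3 differed between the groups with and without IL-25, and the part of that difference in the correlations was not tested.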

How the data were processed

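Per the labels, libraries were made by the MARS-seq protocol from polyadenylated RNA. The submitters' processing notes name bcl2fastq, cutadapt, STAR 2.5.2b, HTSeq and DESeq2, and build mm10. The authors deposited raw counts per gene, from which every level and test here was computed; whether they count reads or molecular identifiers is not given in the sources used here. The authors' deposited log2 fold changes and adjusted p-values were used for comparison only: for vehicle over both cytokines the authors' deposited table gives Cish -1.02 and Socs3 0.52, the direction being the reverse of that used here.

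The low-count filter was filterByExpr of edgeR at its defaults, a count of at least 10, a total of at least 15 and a share of 0.7. It kept 8850 genes for IL25R+ cells, 7626 for ST2+ cells and 8964 of the 9608 in both tables. The quasi-likelihood test of edgeR 4.0.16 (R 4.3.3) with TMM and 1 coefficient per group was fitted on all libraries of a table, or on all 20 for the difference between populations, with Benjamini-Hochberg adjustment over all genes and a threshold of 0.05. There were 9 comparisons. CPM used plain library sizes. The members and gene lists were chosen with earlier results of these data known. The rule for named genes took the 9 members, up to 4 genes per list with the largest changes that passed, the 3 most similar genes with a mean of at least 20 CPM for members that passed in at least 2 comparisons, and Il13, Il1rl1 and Gata3 as checks; Il7r, Pim1 and the marker genes, Aire and Glycam1 were named after their values were seen. Alternatives were DESeq2 size factors, library size alone, no filter, a mean CPM of 10 or more, the DESeq2 test (1.42.0), limma-voom (limma 3.58.1), only the 2 groups compared, the replicate number as a block, each library left out, the Glycam1 side as a term, and the omission of IL-33 libraries 1 and 2 (IL25R+) as a pair. Some items of the lists are not reported here. The pipeline was tested on simulated data. Genes given a log2 change of 1 in size passed with the right sign in 71.1% of cases for IL-25 over vehicle. The share was 11.3% for IL-33 over vehicle in ST2+ cells and 11% for the difference between populations. In ST2+ cells the simulation gave such a change to 97 of 7428 genes, whereas 1262 of 7626 genes passed in the data. With fewer changed genes the adjusted threshold is stricter, so these shares cannot be carried over to the members. For IL-33 over vehicle in ST2+ cells the SE of the members ran from 0.191 (Socs1) to 0.526 (Socs3).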

Additional observations from a re-analysis of the deposited data

How the results depend on the processing

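The members that passed were 2, Cish and Socs3, in 4 comparisons of IL25R+ groups and 0 in the other 5. With library size alone as the scaling, 4 members passed for IL-25 over vehicle (with Stat4 and Stat5b added), 4 for both cytokines over vehicle (with Socs2 at -0.46, edgeR adjusted p = 0.0329, and Stat4 added) and 4 for IL-33 over IL-25 (with Stat3 at 0.41, edgeR adjusted p = 0.0468, and Stat5b added). With the Glycam1 side as a term, 1 passed for IL-25 over vehicle and 1 for both cytokines over IL-33. With each library left out in turn, the number ranged from 1 to 2 for IL-25 over vehicle and from 1 to 2 for both cytokines over vehicle, and was 2 for the other 2 comparisons. The cause of these changes was not tested. No member passed in the other 5 comparisons under the alternatives run with a test. The 8 member changes that passed kept their sign in all 176 alternatives run, and the 73 that did not pass turned sign in 101 of 1597 and passed in 7. CPM on the TMM scale moved 5 of 54 group levels by more than 1 SD.

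Counts over all genes differed most for both cytokines over IL-25 (278 genes, 870 with only the 2 groups compared and 5 with the Glycam1 side as a term), IL-33 over vehicle in IL25R+ cells (21 genes, 1 with only the 2 groups compared and from 2 to 212 across the alternatives with all libraries) and the non-additivity (208 genes, 14 with the Glycam1 side as a term). With that term IL-25 over vehicle had 645 genes in place of 1325, both cytokines over IL-33 had 649 in place of 1519, and the difference between populations had 419 in place of 1032. With only the 2 groups compared, both cytokines over IL-33 had 982 and IL-33 over IL-25 had 732 in place of 1223. With single libraries left out, the count ranged from 80 to 620 for both cytokines over IL-25, 0 to 151 for IL-33 over vehicle in IL25R+ cells, 45 to 701 for the non-additivity, 933 to 1928 for both cytokines over IL-33 and 634 to 1252 for IL-33 over IL-25, with the highest count in each without IL-33 library 3. In ST2+ cells it was 619, 2581 and 693 without IL-33 libraries 1, 2 and 4 and 736 and 737 without vehicle libraries 1 and 2, and the difference between populations ranged from 712 to 2002 (highest without ST2+ IL-33 library 2). The replicate numbers did not pair the IL25R+ libraries. Deviations of same-numbered libraries correlated there at -0.13 to 0.13 over 18 pairs, and 3 of 12 libraries correlated best with their own number. In ST2+ cells these correlations were 0.02 to 0.25 over 4 pairs, and 5 of 8 libraries correlated best with their own number. Whether the ST2+ libraries are paired by number is thus not settled. With the replicate block, 2 members passed in the same 4 comparisons and 0 in the other 5, with 1246 genes for IL-25 over vehicle. Depth limits the ST2+ values of Socs3, Stat4 and Stat5a, whose lowest libraries held 4, 13 and 14 counts.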
